A study of Mus musculus with 12 samples.

Results

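A set of 10 genes of extracellular proteolysis was followed in J774A.1 macrophages, chosen by their symbols in the count tables: the matrix metalloproteinases Mmp8, Mmp9, Mmp12, Mmp13 and Mmp14, the tissue inhibitors Timp1 and Timp2, the membrane proteases Adam8 and Adam17, and the matricellular protein gene Thbs1. They are 10 of the 18719 genes listed for either state. Thbs1 was included because it is lower in ACAT1 KO cells, so its difference between genotypes is described without a test. J774A.1 is a mouse macrophage line, and RNA-seq had been run on 4 groups of 3 libraries to ask what loss of the mitochondrial thiolase ACAT1 does to these cells at rest and after an inflammatory stimulus. WT unstimulated and ACAT1 KO unstimulated cells received no treatment. WT LPS and ACAT1 KO LPS cells received lipopolysaccharide, the bacterial ligand of Toll-like receptor 4, at 100 ng/ml for 2 h. According to the study's methods, ACAT1 KO cells carry Cas9 with a guide RNA against the fourth exon of Acat1, WT cells received the same Cas9 and GFP vector without a guide, and both were sorted by GFP and grown out as small clonal populations. The samples are numbered 1 to 3 in each group, and the study describes the unstimulated ones as 3 different lines of each genotype. The sources used here do not say whether an LPS sample came from the line with the same number, and p-values measure the spread between these samples.

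Matrix metalloproteinases are zinc proteases that are made as inactive precursors and cut collagen, elastin, gelatin and other extracellular proteins. TIMPs occupy their active site and block them. Macrophages use these enzymes to remodel tissue, and ADAM proteases on the same cells release the outer parts of membrane proteins such as the precursor of TNF, while thrombospondin 1 is a secreted glycoprotein that binds matrix, proteases and cell surface receptors including CD36 and CD47.

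The libraries held 56948593 to 167280149 counts. Acat1 itself was at 98.8 ± 15.6 CPM (counts scaled to library size, mean ± SD, n = 3) in WT unstimulated and 26.8 ± 1.82 in ACAT1 KO unstimulated cells, and at 81.9 ± 15.5 and 19.1 ± 0.732 CPM after LPS. All 9 macrophage markers examined were listed in every group, with a summed level of 8837 to 11236 CPM, most of it Lyz2 (5020 to 7413 CPM). Fcgr1 (log2 fold change -0.69, edgeR adjusted p = 0.0124) and Adgre1 (-0.78, adjusted p = 0.0368) were lower in ACAT1 KO unstimulated cells. After LPS, Fcgr1 was lower (-1.07, adjusted p = 0.00312) and Itgam (0.48, adjusted p = 0.0147) and Spi1 (0.26, adjusted p = 0.0240) were higher in ACAT1 KO cells. None of 4 epithelial markers was listed, and the summed levels of the listed markers were at most 13.2 CPM for fibroblasts, nearly all of it Pdgfra, 6.85 CPM for endothelium and 0.938 CPM for lymphocytes. The 8 early LPS response genes examined were all higher after LPS in both genotypes. In 3 of the unstimulated libraries (WT replicates 1 and 2 and ACAT1 KO replicate 2), 0.0101% to 0.0157% of counts lay on genes inside exons of the opposite strand, against at most 0.000803% in the other 9, and results whose call or direction changed without these 3 libraries are also given without them. All RNA was from whole cultures, so a change in every cell and a change in a share of the cells cannot be told apart.

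Mmp13, Mmp12 and Mmp8 lie close together on the plus strand of chromosome 9 (GRCm38, 7272514-7283331, 7344381-7369499 and 7558456-7568485), within 296 kb. Since these neighbours behaved differently, the RefSeq start regions of the 3 genes are shown first. Each runs from 250 bases before to 50 after a RefSeq transcription start on GRCm38.p6, 5′ to 3′, in lower case. Capitals mark matches, on either strand, to the AP-1 motif TGANTCA or to TATAAA. The kappaB motif was searched in the same way and has no match in these windows.
Mmp13 (chr9:7272264-7272563, plus strand): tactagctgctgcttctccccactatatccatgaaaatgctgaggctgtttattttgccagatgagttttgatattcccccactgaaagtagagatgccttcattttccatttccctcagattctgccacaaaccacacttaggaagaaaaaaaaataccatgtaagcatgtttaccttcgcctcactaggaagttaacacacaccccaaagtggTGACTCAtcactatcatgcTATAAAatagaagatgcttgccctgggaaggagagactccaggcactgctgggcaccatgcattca
Mmp12, upstream start (chr9:7344147-7344446, plus strand): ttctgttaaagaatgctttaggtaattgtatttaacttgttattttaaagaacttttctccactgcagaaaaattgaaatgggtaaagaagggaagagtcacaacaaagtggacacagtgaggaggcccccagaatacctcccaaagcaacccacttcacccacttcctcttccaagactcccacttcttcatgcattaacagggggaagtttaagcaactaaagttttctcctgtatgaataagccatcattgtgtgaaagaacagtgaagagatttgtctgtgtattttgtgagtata
Mmp12, downstream start (chr9:7347124-7347423, plus strand): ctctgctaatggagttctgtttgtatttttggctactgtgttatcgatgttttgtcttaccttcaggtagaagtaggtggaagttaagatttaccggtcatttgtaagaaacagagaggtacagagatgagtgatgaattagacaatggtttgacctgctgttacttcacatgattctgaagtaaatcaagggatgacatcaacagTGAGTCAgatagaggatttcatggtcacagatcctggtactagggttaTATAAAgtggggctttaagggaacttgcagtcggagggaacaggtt
Mmp8 (chr9:7558179-7558478, plus strand): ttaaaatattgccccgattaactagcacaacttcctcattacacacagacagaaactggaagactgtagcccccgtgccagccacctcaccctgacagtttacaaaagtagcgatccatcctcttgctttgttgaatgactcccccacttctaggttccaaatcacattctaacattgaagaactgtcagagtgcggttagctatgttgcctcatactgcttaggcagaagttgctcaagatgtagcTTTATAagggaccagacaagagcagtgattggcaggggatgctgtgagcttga
The Mmp13 window holds an AP-1 match from 35 bases before the start and TATAAA from 16 bases before it. The downstream Mmp12 start has an AP-1 match from 44 bases before it and TATAAA just after it, the upstream Mmp12 start has no match, and the Mmp8 window has TATAAA on the opposite strand across the start itself. Among all 32817 windows of this length, 7.81% hold the AP-1 motif, 0.411% the kappaB motif and 13.6% TATAAA, so a match describes the letters only. Of the 10 genes, 8 had a RefSeq window (Mmp12 had 2), and the windows of Mmp14, Timp1, Timp2, Adam8 and Adam17 hold none of the 3 motifs. Mmp9 and Thbs1 had no entry.

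All 10 genes were listed after LPS and 9 in unstimulated cells. Mmp14 was not listed there, so its response to LPS was not analysed here. Per kilobase of exon (RPKM, the CPM divided by exon length), the membrane proteases stood highest in WT unstimulated cells, with Adam8 at 105 ± 3.08 and Adam17 at 55.8 ± 0.864 RPKM (SD, n = 3). Timp2 followed at 32.2 ± 6.16, Mmp9 at 14.6 ± 11.97, Mmp12 at 7.11 ± 2.86 and Mmp13 at 3.38 ± 1.07 RPKM. From Timp2 down to Mmp13, each gene's range over the 3 libraries overlapped that of its neighbour in this order. Thbs1, at 1.60 ± 0.187 RPKM, Mmp8, at 0.863 ± 0.0596, and Timp1, at 0.124 ± 0.0863, came last and did not overlap with each other. After LPS, Mmp13 held the third place, at 47.8 ± 14.7 RPKM in WT, where its range overlapped that of Timp2, and 59.7 ± 18.5 in ACAT1 KO cells, where it overlapped that of Adam17.

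**Figure D1:**
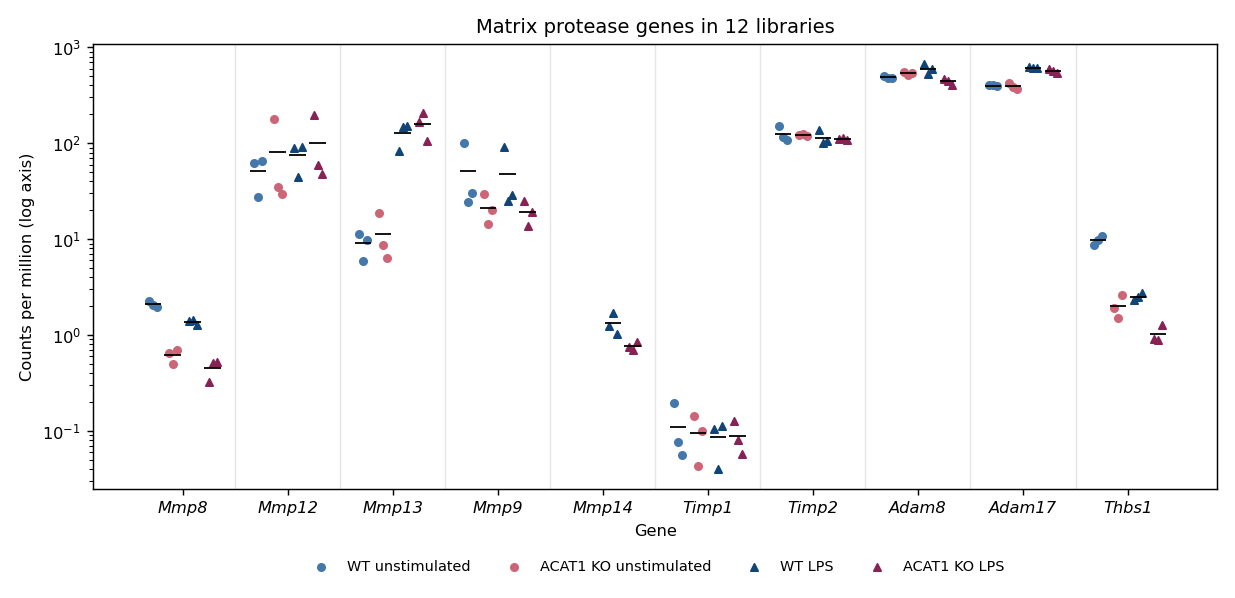
Level of each gene in each of the 12 libraries, in CPM on a log axis, with circles for unstimulated and triangles for LPS libraries, blue for WT and red for ACAT1 KO, and a bar at each group's mean. Mmp13 rose with LPS in both genotypes, Mmp8 and Thbs1 were lower in ACAT1 KO than in WT in both states, and Mmp14 is shown only after LPS.

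ACAT1 KO was compared with WT within each state. In unstimulated cells, 1 of the 8 genes tested passed an adjusted p of 0.05, Mmp8, which was lower, where 1.91% of all 16440 genes tested passed and 1.17% were lower. After LPS, 3 of 9 passed, Mmp8, Mmp14 and Adam8, all lower, where 15.1% of 16483 genes passed and 9.12% were lower. The median log2 fold change over these genes was -0.03 at rest and -0.08 after LPS, beside 0.0035 and -0.0041 over all genes tested. Mmp12, Mmp13, Mmp9, Timp1, Timp2 and Adam17 did not pass in either state. The plot of ACAT1 KO against WT sets both states side by side.

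**Figure D2:**
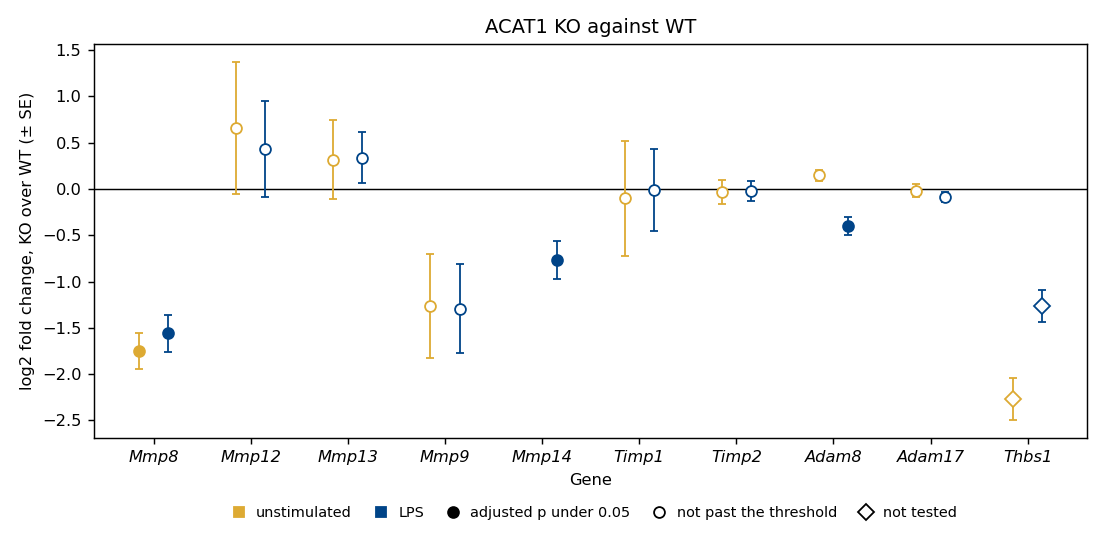
Log2 fold change of ACAT1 KO over WT with its standard error for each gene, in unstimulated cells (yellow) and after LPS (blue), filled where the adjusted p was under 0.05, open where it was not, and as diamonds for Thbs1, which was not tested. Mmp8 lay at -1.75 and -1.56, Mmp14 at -0.77 and Adam8 at -0.40 after LPS.

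LPS was compared with no stimulation within each genotype. Of 8 genes tested in WT, 4 passed, with Mmp13, Adam17 and Adam8 higher and Mmp8 lower, where 57.4% of all 16535 genes tested passed, 29.3% higher and 28.0% lower. Of the same 8 in ACAT1 KO cells, 3 passed, with Mmp13 and Adam17 higher and Adam8 lower, where 60.7% of all genes passed, 29.5% higher and 31.2% lower. Libraries with the same number in the unstimulated and LPS groups of a genotype deviated together, and with the replicate number as a block 6 genes passed in WT and 5 in ACAT1 KO cells, with Mmp12 and Timp2 added in each (62.0% and 64.8% of all genes). The median log2 change over the 8 genes was 0.10 in WT and -0.14 in ACAT1 KO cells, beside -0.018 and -0.026 over all genes.

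**Figure D3:**
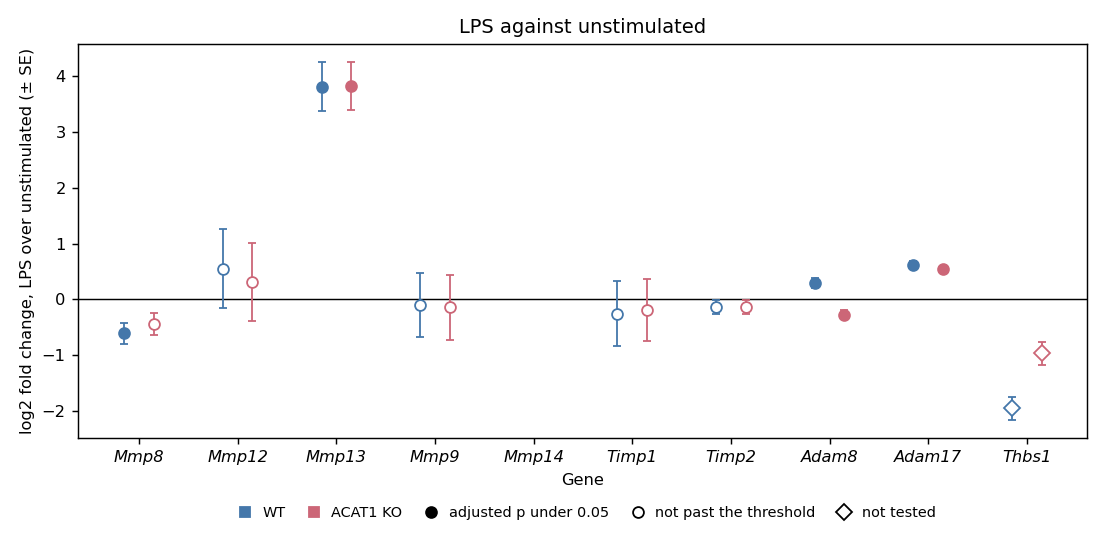
Log2 fold change of LPS over unstimulated cells with its standard error for each gene, in WT (blue) and ACAT1 KO (red), filled where the adjusted p was under 0.05, open where it was not, and as diamonds for Thbs1, which was tested only as the average of both genotypes. Mmp13 lay at 3.82 and 3.83, and Adam8 at 0.29 in WT and -0.27 in ACAT1 KO cells.

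Among the collagenases, Mmp8, the neutrophil type of interstitial collagenase, was low throughout but separated the genotypes. Its levels were 2.25, 2.06 and 1.97 CPM in WT unstimulated and 0.644, 0.500 and 0.702 CPM in ACAT1 KO unstimulated cells. After LPS they were 1.41, 1.44 and 1.27 CPM in WT and 0.326, 0.510 and 0.524 CPM in ACAT1 KO cells. The genotypes were separate in either state, as was the case for 25.5% of all genes at rest and 37.8% with LPS. The level in ACAT1 KO cells was 3.37-fold lower without stimulation (log2 fold change -1.75, SE 0.194, edgeR adjusted p = 0.0199) and 2.94-fold lower after LPS (log2 fold change -1.56, SE 0.199, adjusted p = 0.00414). The difference after LPS passed in each of the 6 fits with a library left out, while in unstimulated cells leaving out WT replicate 1 or 2 or any ACAT1 KO replicate gave log2 fold changes of -1.62 to -1.86 with edgeR adjusted p from 0.0569 to 0.0907. The log2 ratio of mean CPM was -2.11 within the 3 libraries with more opposite-strand counts (1 ACAT1 KO, 2 WT) and -1.55 within the other 3. Mmp8 rested on 28 to 243 counts per library. Of 8 neutrophil markers, Ly6g, S100a9 and Elane were listed in neither state. The summed level of the 2 listed in unstimulated cells was 75.1 to 101.6 CPM in WT and 123 to 145 CPM in ACAT1 KO cells, and that of the 5 listed after LPS was 52.1 to 80.0 and 87.4 to 100.9 CPM. Nearly all of it was Csf3r, with means of 87.2 and 128 CPM at rest and 60.9 and 89.3 CPM after LPS, while S100a8 had means of 3.72 and 3.99 CPM at rest and 2.73 and 2.48 CPM after LPS, and the part of these markers in the result was not tested.

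With LPS, Mmp8 fell by 0.61 on the log2 scale in WT (SE 0.193, edgeR adjusted p = 0.0178), and was lower in all 3 same-numbered pairs, at 0.625, 0.699 and 0.646 times the unstimulated level. In ACAT1 KO cells the ratios were 0.506, 1.02 and 0.746 and the log2 change of -0.44 (SE 0.202) did not pass (adjusted p = 0.0784). The WT call was lost without WT LPS replicate 3 (log2 change -0.55, adjusted p = 0.0636) and without the 3 libraries with more opposite-strand counts (-0.55, adjusted p = 0.0735), where a single WT unstimulated library was left and was assumed to vary like the other groups. In ACAT1 KO cells the change passed without these 3 libraries (-0.54, adjusted p = 0.0484), without ACAT1 KO unstimulated replicate 2 (-0.56, adjusted p = 0.0373) and with upper-quartile scaling (-0.59, adjusted p = 0.0220), so which genotype passed depended on the fit.

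Mmp13, the main interstitial collagenase of rodents, had the largest LPS response among these genes. It was at 11.4, 5.88 and 9.80 CPM in WT unstimulated and 18.6, 8.63 and 6.36 CPM in ACAT1 KO unstimulated cells. After LPS it was at 82.6, 148 and 153 CPM in WT and 168, 204 and 107 CPM in ACAT1 KO cells. Every LPS library lay above every unstimulated library of its genotype, and 61.0% of all genes did not overlap between states in WT and 67.8% in ACAT1 KO cells. The rise was 14.1-fold in WT (log2 change 3.82, SE 0.438, edgeR adjusted p = 1.25e-05) and 14.2-fold in ACAT1 KO cells (log2 change 3.83, SE 0.434, adjusted p = 1.03e-05). Between same-numbered libraries it ranged from 7.22-fold in WT replicate 1 to 25.2-fold in WT replicate 2. The genotypes overlapped in both states, with log2 fold changes of ACAT1 KO over WT of 0.32 (SE 0.425, adjusted p = 0.747) and 0.34 (SE 0.274, adjusted p = 0.443).

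Mmp12, macrophage elastase, varied widely between replicates. Its levels were 61.9, 27.6 and 64.8 CPM in WT unstimulated and 178, 35.2 and 29.5 CPM in ACAT1 KO unstimulated cells, and 90.1, 44.3 and 92.3 CPM in WT LPS and 196, 59.1 and 47.9 CPM in ACAT1 KO LPS cells. ACAT1 KO replicate 1 stood highest and WT replicate 2 lowest of its genotype in both states. ACAT1 KO over WT gave log2 fold changes of 0.66 (SE 0.715, edgeR adjusted p = 0.681) and 0.43 (SE 0.517, adjusted p = 0.611), and without ACAT1 KO replicate 1 they were -0.67 and -0.48. With LPS, Mmp12 was higher in 6 of 6 same-numbered pairs, 1.42 to 1.60 times in WT and 1.10, 1.68 and 1.62 times in ACAT1 KO cells. With the replicate block its log2 change was 0.58 in WT (SE 0.110, edgeR adjusted p = 0.00173) and 0.52 in ACAT1 KO cells (SE 0.109, adjusted p = 0.00282). Without the block it did not pass, at 0.55 (SE 0.703, adjusted p = 0.535) and 0.31 (SE 0.699, adjusted p = 0.715). Exons of Mmp12 overlap 157 bases of Mmp1b on the opposite strand, and whether the counting used strand is not given in the sources used here.

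Mmp9, the gelatinase of activated leukocytes (chromosome 2, 164940780-164955850), was set apart by a single WT replicate. It was at 100.5, 24.5 and 30.0 CPM in WT unstimulated and 29.7, 14.3 and 20.05 CPM in ACAT1 KO unstimulated cells. After LPS it was at 91.2, 25.2 and 28.6 CPM in WT and 25.3, 13.6 and 19.3 CPM in ACAT1 KO cells. WT replicate 1 stood far above the other WT libraries in both states, and between same-numbered libraries the level after LPS was 0.851 to 1.02 times that without it. ACAT1 KO over WT was -1.27 on the log2 scale in unstimulated cells (SE 0.562, edgeR adjusted p = 0.275) and -1.29 after LPS (SE 0.479, adjusted p = 0.108). Without WT replicate 1 these were -0.36 and -0.45. Within the libraries with more opposite-strand counts, which include WT replicate 1, the log2 ratio of mean CPM was -2.13, and within the other 3 it was -0.27.

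Mmp14, the membrane-type metalloproteinase that activates pro-MMP2 and cuts collagen at the cell surface (chromosome 14, 54431612-54445364), was near the lower end of the levels. After LPS it was at 1.25, 1.68 and 1.04 CPM in WT and 0.745, 0.698 and 0.848 CPM in ACAT1 KO cells, from 64 to 166 counts per library. The genotypes did not overlap, as was the case for 37.8% of all genes. It was 1.70-fold lower in ACAT1 KO cells (log2 fold change -0.77, SE 0.207, edgeR adjusted p = 0.0430). This call was close to the threshold. It was lost on leaving out any library but WT replicate 3 (log2 fold change -0.55 to -0.85, adjusted p from 0.0607 to 0.142) and with limma-voom (adjusted p = 0.0572).

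The inhibitors did not separate the groups by genotype. Timp1, on chromosome X (20870166-20874735), was close to the limit of counting, with 4 to 20 counts per library and group means of 0.0861 to 0.110 CPM, and its log2 fold changes of ACAT1 KO over WT were -0.10 (SE 0.623) and -0.012 (SE 0.447). Timp2, on chromosome 11 (118301069-118355740), was abundant, with 153, 117 and 107 CPM in WT unstimulated, 122, 126 and 118 CPM in ACAT1 KO unstimulated, 136, 101 and 106 CPM in WT LPS and 111, 114 and 108 CPM in ACAT1 KO LPS cells. The genotypes overlapped in both states, with log2 fold changes of -0.04 (SE 0.130) and -0.02 (SE 0.106). Timp2 was lower after LPS in 6 of 6 same-numbered pairs, at 0.865 to 0.983 times the unstimulated level. With the replicate block its log2 change was -0.13 in WT (SE 0.0507, edgeR adjusted p = 0.0467) and -0.13 in ACAT1 KO cells (SE 0.0506, adjusted p = 0.0444), and without it -0.14 (adjusted p = 0.390) and -0.13 (adjusted p = 0.389).

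Adam8, a leukocyte membrane protease and sheddase (chromosome 7, 139978932-139992562), went in opposite directions with LPS in the genotypes. Its levels were 501, 474 and 482 CPM in WT unstimulated and 555, 516 and 534 CPM in ACAT1 KO unstimulated cells, so that the ACAT1 KO libraries lay above those of WT. After LPS they were 667, 523 and 592 CPM in WT and 472, 451 and 407 CPM in ACAT1 KO cells, so that the ACAT1 KO libraries lay below. Of all genes, 25.5% did not overlap between genotypes at rest and 37.8% did not after LPS. The log2 fold change of ACAT1 KO over WT was 0.15 in unstimulated cells (SE 0.0615, edgeR adjusted p = 0.248) and -0.40 after LPS (SE 0.0959, adjusted p = 0.0292). The call after LPS was lost without WT replicate 3 or any ACAT1 KO replicate (log2 fold change -0.34 to -0.45, adjusted p from 0.0618 to 0.102). Exons of Adam8 overlap 46 bases of Gm16201 on the opposite strand.

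LPS raised Adam8 in 3 of 3 WT pairs, 1.33-, 1.10- and 1.23-fold, and lowered it in 3 of 3 ACAT1 KO pairs, to 0.850, 0.874 and 0.763 times. The log2 changes were 0.29 (SE 0.0861, edgeR adjusted p = 0.0123) and -0.27 (SE 0.0860, adjusted p = 0.0167). Upper-quartile scaling put the median change of all genes at -0.23 in WT and -0.17 in ACAT1 KO cells, against -0.018 and -0.026 in the fit reported here. The Adam8 change was then 0.08 in WT (adjusted p = 0.419) and -0.42 in ACAT1 KO cells, and relative to the median of all genes it was 0.31 in WT under both scalings, and -0.24 and -0.25 in ACAT1 KO cells. The WT call was lost without WT LPS replicate 1 (log2 change 0.20, adjusted p = 0.0570) and without the 3 libraries with more opposite-strand counts (0.27, adjusted p = 0.107). The ACAT1 KO call was lost without ACAT1 KO LPS replicate 3 (log2 change -0.21, adjusted p = 0.0744) or ACAT1 KO unstimulated replicate 1 (-0.24, adjusted p = 0.0525).

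The difference between the LPS effects themselves was tested for 8 of the genes. None passed in the fit without the block (edgeR, 0.187% of all genes passed), and 1 had an unadjusted p under 0.05 (8.92% of all genes), Adam8, whose LPS effect in ACAT1 KO minus that in WT was -0.56 on the log2 scale (SE 0.122, adjusted p = 0.0989). DESeq2 without the block called it (adjusted p = 0.00124), while limma-voom (adjusted p = 0.110) and edgeR with upper-quartile scaling (adjusted p = 0.145) did not. None of the 12 edgeR fits with a library left out called it (-0.47 to -0.65). With the replicate block Adam8 passed (-0.56, SE 0.0917, edgeR adjusted p = 0.0268), where 1.74% of all genes did, and it passed with a further term for the 3 libraries with more opposite-strand counts (-0.54, adjusted p = 0.0183). It did not pass without these 3 libraries (-0.56, SE 0.164, adjusted p = 0.374).

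Adam17, the protease that releases TNF and its receptors (chromosome 12, 21323509-21373632), rose with LPS in 6 of 6 same-numbered pairs, by 1.41- to 1.56-fold. It was at 401, 404 and 392 CPM in WT unstimulated and 423, 386 and 367 CPM in ACAT1 KO unstimulated cells. After LPS it was at 624, 609.8 and 605 CPM in WT and 598, 569 and 544 CPM in ACAT1 KO cells. All LPS libraries lay above all unstimulated ones, with log2 changes of 0.62 in WT (SE 0.0625, edgeR adjusted p = 4.31e-06) and 0.54 in ACAT1 KO cells (SE 0.0625, adjusted p = 1.20e-05). Of all genes, 61.0% did not overlap between states in WT and 67.8% in ACAT1 KO cells. The genotypes differed by -0.02 (SE 0.0696, adjusted p = 0.924) and -0.08 (SE 0.0562, adjusted p = 0.355) on the log2 scale. The ACAT1 KO libraries lay below those of WT after LPS, where 37.8% of all genes did not overlap between genotypes. Adam17 lies on chromosome 12, where the median over all genes tested was -0.26 at rest and -0.28 with LPS. The other genes starting within 1 Mb of Adam17 had medians of -0.13 (11 genes) and -0.049 (9 genes). Exons of Adam17 overlap 311 bases of Iah1 on the opposite strand.

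Thbs1, on chromosome 2 (118111876-118127133), was at 8.59, 9.71 and 10.9 CPM in WT unstimulated and 1.90, 1.501 and 2.62 CPM in ACAT1 KO unstimulated cells. After LPS it was at 2.31, 2.48 and 2.72 CPM in WT and 0.920, 0.894 and 1.27 CPM in ACAT1 KO cells. The highest ACAT1 KO library lay below the lowest WT library in each state, which is the difference it was chosen for. As a description, the log2 fold change of ACAT1 KO over WT was -2.27 (SE 0.228) in unstimulated cells and -1.26 (SE 0.170) after LPS, and within the libraries with more and with fewer opposite-strand counts the unstimulated log2 ratio of mean CPM was -2.61 and -2.27. The ACAT1 KO unstimulated libraries overlapped those of WT after LPS, with means of 2.01 ± 0.567 and 2.50 ± 0.204 CPM (SD, n = 3).

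The effect of LPS averaged over genotypes was not used to choose Thbs1, and it was tested. Thbs1 fell by 1.46 on the log2 scale (SE 0.145, edgeR adjusted p = 2.02e-06, where 35.5% of all genes were lower), in 6 of 6 same-numbered pairs. The level after LPS was 0.269, 0.256 and 0.250 times the unstimulated level in WT and 0.485, 0.596 and 0.484 times in ACAT1 KO cells, with log2 changes of -1.96 and -0.97 whose difference was not tested. The averaged change passed under every alternative run for it, at -1.34 to -1.64 (adjusted p at most 1.41e-05). Exons of Thbs1 overlap 208 bases of Gm29233 on the opposite strand.

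**Figure D4:**
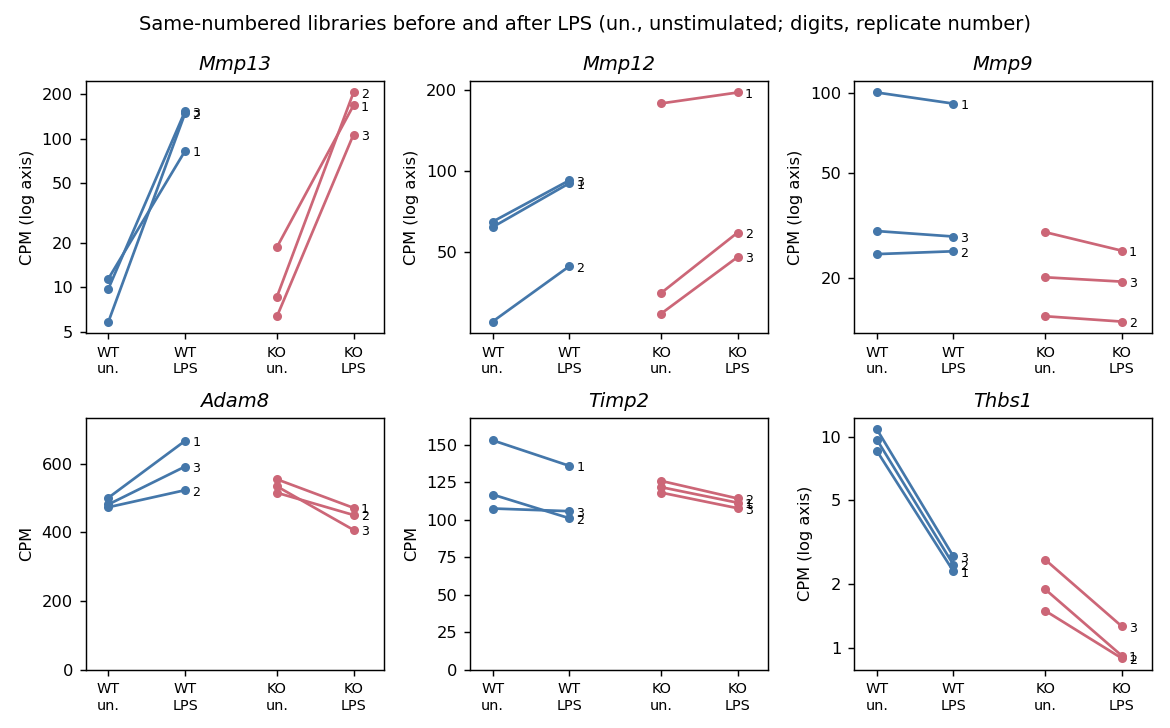
Level of 6 genes in each unstimulated library and in the LPS library of the same genotype and number, joined by a line, with WT in blue, ACAT1 KO in red, digits for replicate numbers, and log axes for Mmp13, Mmp12, Mmp9 and Thbs1. Every pair rose for Mmp13 and Mmp12 and fell for Timp2 and Thbs1, the Adam8 pairs rose in WT and fell in ACAT1 KO cells, and WT replicate 1 for Mmp9 and ACAT1 KO replicate 1 for Mmp12 stood apart in both states.

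Thbs1 and Mmp9 lie on chromosome 2 beyond 90 Mb, where the median of ACAT1 KO over WT was 0.29 over 709 genes at rest and 0.28 over 712 genes with LPS, on the log2 scale. Both lay on the other side of zero. The other genes starting within 1 Mb of Thbs1 had medians of 0.37 (18 genes) and 0.38 (17 genes), and those near Mmp9 0.33 (36 genes) and 0.28 (34 genes). On chromosome 9 the medians were 0.0079 and -0.00087, and between Mmp12 and Mmp8 the stromelysin gene Mmp10 (7502352-7510240) rose with LPS, by 2.35 on the log2 scale in WT (edgeR adjusted p = 3.47e-04) and 1.38 in ACAT1 KO cells (adjusted p = 0.00931). The 4 neighbouring metalloproteinase genes thus ran, in WT cells, from Mmp13 at 3.82 and Mmp10 at 2.35 to Mmp12 at 0.55 and Mmp8 at -0.61.

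The libraries' patterns were also compared without regard to function, by the root mean square difference of log2 CPM centred on the mean of the 12 libraries, over 11960 other genes. The 3 genes closest to Thbs1 were Tspoap1 (0.44), Jag2 (0.44) and Hoxa5 (0.48), where the median gene was 1.19 away. Closest to Mmp8 were Fcrls (0.20), Chd3 (0.25) and Edil3 (0.30), with a median of 0.87. Closest to Mmp13 were Dusp2 (0.29), a phosphatase of MAP kinases, the chemokine gene Ccl3 (0.36) and Marcksl1 (0.37), with a median of 2.00. Closest to Adam8 were Tmem131l (0.10), Itpripl2 (0.10) and Aifm2 (0.10), with a median of 0.34, and closest to Mmp9, with its high WT replicate 1, were Col23a1 (0.33), Ppbp (0.46) and Bik (0.47), with a median of 0.92.

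Among other genes of the same processes, 4 of the 18 further metalloproteinase genes could be tested for genotype after LPS, where 15.1% of all genes passed. Mmp19 was lower (log2 fold change -1.28, edgeR adjusted p = 0.0228) and Mmp25, a membrane-anchored enzyme of leukocytes, higher (1.01, adjusted p = 0.0217) in ACAT1 KO cells. None of 5 passed in unstimulated cells (edgeR), where 1.91% of all genes did. Of these 5, 1 had an unadjusted p under 0.05, as did at least 3120 of all 16440 genes tested. With LPS, 1 of 5 rose and 2 fell in each genotype (of all genes, 29.3% rose and 28.0% fell in WT, and 29.5% and 31.2% in ACAT1 KO cells, in the same fit), with Mmp11 at -2.95 in WT and -1.84 in ACAT1 KO cells and Mmp19 at -0.91 and -1.35. The median of this list was -0.91 in WT and -1.06 in ACAT1 KO cells, beside -0.018 and -0.026 over all genes. Furin, the convertase that activates Mmp14 and ADAM precursors, rose by 1.56 in WT (adjusted p = 3.15e-07) and 1.38 in ACAT1 KO cells (adjusted p = 7.05e-07), among 4 further inhibitors and activators, of which 2 rose and 1 fell in WT (Spock2, -0.69, adjusted p = 0.0414) and 1 rose and 1 fell in ACAT1 KO cells (Reck, -0.66, adjusted p = 0.00996). After LPS it was lower in ACAT1 KO than in WT cells (-0.29, adjusted p = 0.0395).

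Of 11 further ADAM and ADAMTS genes tested with LPS, 2 rose and 6 fell in each genotype, where 28.0% of all genes fell in WT and 31.2% in ACAT1 KO cells, with a median of -0.24 in WT and -0.25 in ACAT1 KO cells. Adamts4, an aggrecanase, rose by 6.12 on the log2 scale in WT (edgeR adjusted p = 1.09e-08) and 6.64 in ACAT1 KO cells (adjusted p = 4.69e-09), and Adamts10 fell by 1.41 (adjusted p = 1.58e-08) and 1.54 (adjusted p = 6.54e-09). After LPS, Adamts1 was higher (1.01, adjusted p = 0.00145) and Adamts10 lower (-0.37, adjusted p = 0.0228) in ACAT1 KO than in WT cells. These were the calls among 12 genes tested, where 15.1% of all genes passed. Of 13 partners and substrates of ADAM17, 5 rose and 3 fell in WT, and 6 rose and 4 fell in ACAT1 KO cells, where 57.4% and 60.7% of all genes changed. Rhbdf2, the iRhom that brings ADAM17 to the cell surface, rose by 1.51 (adjusted p = 1.20e-08) and 1.59 (adjusted p = 6.18e-09), and the ADAM17 substrate gene Tnfrsf1b by 3.40 (adjusted p = 5.87e-09) and 3.62 (adjusted p = 3.26e-09). After LPS, Tnf was higher in ACAT1 KO cells (0.59, adjusted p = 0.0333) while Tnfrsf1a (-0.22, adjusted p = 0.0263) and Il6ra (-0.27, adjusted p = 0.0345) were lower, where 15.1% of all genes passed.

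Genes of the thrombospondin family and of THBS1 receptors, in a list that also holds Tgfb1, mostly rose with LPS while Thbs1 fell. The receptor gene Cd36 was not listed in unstimulated cells, so its LPS response was not analysed. After LPS it was at 0.0661 to 0.142 CPM in WT and 0.0286 to 0.0931 CPM in ACAT1 KO cells. Of 10 tested, 7 rose and none fell in each genotype (edgeR, also 7 at an unadjusted p under 0.05), where 29.3% and 29.5% of all genes rose, with medians of 0.46 and 0.62 beside -0.018 and -0.026 over all genes. The surface proteoglycan gene Sdc4 rose by 4.07 in WT (adjusted p = 9.16e-09) and 5.14 in ACAT1 KO cells (adjusted p = 1.87e-09), the integrin gene Itgav by 2.36 (adjusted p = 7.89e-09) and 1.97 (adjusted p = 2.45e-08), and Cd47 by 0.83 (adjusted p = 2.29e-06) and 0.89 (adjusted p = 1.09e-06). Itgav alone of this list passed for genotype, of 10 genes tested at rest and 11 after LPS. Of all genes, 1.91% and 15.1% passed. Itgav was lower in ACAT1 KO cells, at -0.59 in unstimulated cells (edgeR adjusted p = 0.0390) and -0.97 after LPS (adjusted p = 0.00268). The list median was -0.24 at rest and -0.11 after LPS. Sdc4 (-0.86, adjusted p = 0.0763) and Itga4 (-0.63, adjusted p = 0.106) were also lower at rest but did not pass.

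The plasminogen system, whose product plasmin activates several metalloproteinase precursors, rose with LPS in 7 of 8 genes tested in WT and 6 of 8 in ACAT1 KO cells, where 29.3% and 29.5% of all genes rose, with medians of 1.66 and 1.36 beside -0.018 and -0.026. The urokinase receptor gene Plaur rose by 2.40 on the log2 scale in WT (edgeR adjusted p = 1.16e-09) and 1.75 in ACAT1 KO cells (adjusted p = 8.92e-09). After LPS, 4 of 9 were lower and 2 higher in ACAT1 KO than in WT cells, where 15.1% of all genes passed and 9.12% were lower. The lower ones included S100a10 (-0.90, adjusted p = 0.00253) and Anxa2 (-0.83, adjusted p = 0.00818), whose products form a plasminogen-binding complex at the cell surface, and Plaur (-0.47, adjusted p = 0.00817). In unstimulated cells none of 8 passed (edgeR), where 1.91% of all genes did. An unadjusted p under 0.05 was found for 3 of them, and for at least 3120 of all 16440 genes tested.

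Cysteine cathepsins and cystatins rose with LPS in 5 of 10 genes in WT and 6 of 10 in ACAT1 KO cells, none falling, where 29.3% and 29.5% of all genes rose. After LPS, Ctsc (0.88, edgeR adjusted p = 0.00954) and Ctsz (0.40, adjusted p = 0.00958) were higher and Ctsl (-0.28, adjusted p = 0.0310) lower in ACAT1 KO cells, where 15.1% of all genes passed. Of 11 genes of matrix components, which these enzymes cut, 4 rose and 1 fell with LPS in WT and 4 rose in ACAT1 KO cells, where 57.4% and 60.7% of all genes changed, with the collagen gene Col4a2 at 3.28 (adjusted p = 1.20e-07) and 3.38 (adjusted p = 6.61e-08) and the laminin gene Lamc1 at 1.84 (adjusted p = 6.84e-09) and 1.48 (adjusted p = 2.80e-08). After LPS, Tgfbi (2.88, adjusted p = 0.0261) and Col4a2 (0.57, adjusted p = 0.0237) were higher and Lamc1 (-0.30, adjusted p = 0.0149) lower in ACAT1 KO cells, where 15.1% of all genes passed.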

How the data were processed

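RNA from 12 J774A.1 samples had been sequenced from libraries made with a directional kit. For trimming the authors used Trimmomatic 0.33, for alignment HISAT2 on GRCm38, and for transcripts StringTie and Ballgown. How whole counts were made, and whether strand was used, is not given in the sources used here. The deposited values are raw read counts per gene, in 2 tables, 1 for each state. Also in the tables and not used were 12 columns of the authors' log2 values and their own fold changes and p-values.

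Repeated entries of a gene were removed (59 unstimulated, 57 LPS). The tables listed 17544 and 17874 genes, 16699 in both, and each held only genes with at least 4 counts in at least 5 of 6 libraries. Genes with an identifier but no symbol (5 and 7) were kept. The genes described and the lists beside them were chosen with earlier results of these data known. Genes were named by rule: all 10 of the set, up to 3 of each list with the smallest p in a comparison, and the 3 closest in pattern to a gene described in depth.

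Tests were edgeR 4.0.16 quasi-likelihood tests (R 4.3.3) after filterByExpr and TMM scaling, with Benjamini-Hochberg adjustment over all genes tested and a threshold of 0.05. The genotypes were compared within each table, and LPS effects in a fit of all 12 libraries over genes in both. Standard errors are the absolute log2 fold change divided by the square root of F. CPM used the effective library sizes of the 12-library fit, and the likeness measure a pseudocount of 0.1 CPM and genes with a mean of at least 1 CPM. Library depth was 56948593 to 167280149 counts, so precision was limited by the spread between replicates. For Timp1, Mmp14, Mmp8 and Thbs1 low counts limited it as well.

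Same-numbered unstimulated and LPS libraries of a genotype deviated together, with correlations of 0.139 to 0.454 over 11961 genes, so the replicate number was also used as a block for LPS effects. The pairing comes from the numbers in the sample titles and this check, since the sources used here do not say that a number marks a line in both states. On simulated data, 56.2% of genes changed by 1 on the log2 scale were called for genotype in unstimulated cells (16238 genes) and 71.6% after LPS (16266 genes).

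Alternatives were DESeq2 1.42.0, limma-voom (limma 3.58.1), other scalings and filters, the replicate block, a single fit of all libraries, each library left out and, chosen after seeing the data, a term for or removal of the 3 libraries with more opposite-strand counts. Figures were drawn with matplotlib 3.10.9 and pandas 2.3.3 in Python 3.11.15.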

Additional observations from a re-analysis of the deposited data

Results flagged for a closer look

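The LPS effect on Adam8 differed between the genotypes in direction and in the test of the difference under some fits. Adam8 was flagged because every same-numbered pair was higher after LPS in WT and lower in ACAT1 KO cells, so that pattern adds no separate support. The LPS effect in ACAT1 KO minus that in WT was -0.56 on the log2 scale. It had an adjusted p of 0.0268 with the replicate block and 0.0989 without it (edgeR). Without the block it passed in none of the 12 fits with a library left out.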

How the results depend on the processing

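Of the alternatives for tested effects of single genes, 543 kept the direction and the side of the threshold, 23 lost a call, 14 gained one and 36 turned the direction, all 36 for effects that had not passed. For the Thbs1 values given without a test, 90 alternatives moved the value by less than 1 SD between replicates and 2 by more. Thbs1 was chosen for its genotype difference, so this count adds no support for that difference. With 1 library left out at a time, the number of genes of the set called for genotype ranged from 0 to 1 in unstimulated cells (1 with all libraries) and from 1 to 2 after LPS (3 with all libraries). Over all genes, the unstimulated count was 314, and it ranged from 7 (without WT replicate 2) to 522 (without WT replicate 3) with a library left out, and was 1721 with DESeq2, 1353 in a single fit of the 12 libraries, 475 with at least 10 counts in every library, 664 with a term for the 3 libraries with more opposite-strand counts and 151 with the replicate block. After LPS the count of 2481 fell to as few as 867 (without ACAT1 KO replicate 2). The cause was not tested.

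Without the 3 libraries with more opposite-strand counts, 2 genes were called for LPS in WT in place of 4, and 4 in ACAT1 KO cells in place of 3, with Mmp8 added. With the replicate block, 5 genes were called for LPS in ACAT1 KO cells in place of 3. For the difference between LPS effects, 1 gene was called, Adam8, with DESeq2, with the replicate block, and with the block and a term for these 3 libraries, in place of 0, while over all genes 31 were called, and 334, 288 and 457 with these alternatives, 11 with limma-voom, 2 without the 3 libraries and 2 to 41 with a library left out. What WT and ACAT1 KO samples with the same number share is not known. Their deviations had correlations of -0.412 for replicate 1 and 0.745 for replicates 2 and 3 in unstimulated cells. After LPS the correlations were 0.126, 0.173 and -0.108. With that number as a block, the genotype difference after LPS of Mmp9 was -1.08 (edgeR adjusted p = 0.0372) and of Mmp14 -0.75 (adjusted p = 0.0772). Upper-quartile scaling gave 3628 higher and 6681 lower genes for LPS in WT (4850 and 4638 with TMM), 3921 and 6560 in ACAT1 KO cells (4871 and 5166), 4325 and 7657 on average (5620 and 5871), and a Thbs1 change in WT of -2.16. Without the 3 libraries that change was -2.14.

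Directions turned for LPS without the 3 libraries in Mmp12 in ACAT1 KO cells (-0.031), and in Mmp9 (0.65), Timp1 (0.61) and Timp2 (0.058) in WT. For genotype, Timp1 after LPS turned to 0.039 with DESeq2, 0.061 with limma-voom, 0.013 with the replicate block and 0.016 with upper-quartile scaling, Timp2 after LPS to 0.0095 with upper-quartile scaling, and unstimulated Timp2 to 0.040 with the term for the 3 libraries. With a library left out, genotype differences in unstimulated cells ranged from -0.090 to 0.028 for Adam17, -0.67 to 1.06 for Mmp12, -0.28 to 0.60 for Mmp13, -0.47 to 0.59 for Timp1 and -0.14 to 0.12 for Timp2, and after LPS from -0.48 to 0.78 for Mmp12, -0.33 to 0.31 for Timp1 and -0.10 to 0.12 for Timp2. LPS effects ranged from -0.60 to 1.64 for Mmp12, -0.38 to 0.17 for Mmp9 and -0.52 to 0.23 for Timp1 in ACAT1 KO cells, and from -0.94 to 0.79 for Mmp9, -0.65 to 0.41 for Timp1 and -0.28 to 0.0016 for Timp2 in WT. The depth of Timp1, at 4 to 20 counts per library, limits what can be said of it.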

Other observations

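The ratios of Mmp13 after LPS to before had the same order by replicate number in both genotypes, which was not tested. The rise was 7.22-fold in WT and 8.99-fold in ACAT1 KO cells for replicate 1, 25.2-fold and 23.7-fold for replicate 2, and 15.6-fold and 16.8-fold for replicate 3. The levels after LPS did not share an order. For replicates 1 to 3 they were 82.6, 148 and 153 CPM in WT and 168, 204 and 107 CPM in ACAT1 KO cells. The sources used here do not say what samples with the same number share.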
